A study of Mus musculus with 9 samples.

Results

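The secreted and membrane-bound families of repulsive guidance cues, the semaphorins, Slits, ephrins and repulsive guidance molecules, were followed with their receptors in bulk RNA sequencing of mouse bone marrow at 2 ages. Members were taken by gene symbol from the deposited table: the semaphorins of classes 3 to 7, the plexins, the neuropilins, the Slits and their Robo receptors, the ephrins and their Eph receptors, and Rgma and Rgmb. This gave 62 of 56980 genes, made up of 20 semaphorins, 9 plexins, 2 neuropilins, 3 Slits, 4 Robos, 8 ephrins, 14 Eph receptors and 2 repulsive guidance molecules. Of these, 52 passed the filter on low counts and were tested among 16576 genes, and the other 10 are described by their counts.

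The mice were wild-type C57BL/6 animals labelled female, with 4 young libraries (3 months) and 5 aged libraries (20 months), each labelled a biological replicate. No treatment or allele other than ageing was named, and the study concerned sensory nerves and netrin-4 from osteoblasts. The labelled tissue was bone marrow, while the extraction protocol described homogenised trabecular bone, so marrow, bone and attached tissue were all possible sources of RNA. Library totals were 19804883 to 23548594 estimated counts. Fewer cells of a type and less RNA per cell cannot be told apart in such tissue.

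Marrow and bone markers were present in every library, with summed neutrophil markers at 16497 to 71335 CPM (counts scaled to a common library size) and summed osteoblast markers at 669 to 6199 CPM. Skeletal muscle markers reached 3362 to 8735 CPM, whereas the neuron markers Prph, Elavl4, Snap25, Scn9a and Th were each at 0 in at least 1 library. The 3 libraries young 4, aged 3 and aged 4 stood apart: genes for ribosomal proteins took 6.13% to 7.30% of their counts against 3.17% to 3.43% in the other 6, and their scaling factors by the trimmed mean of M values (TMM) were 0.704 to 0.862 against 1.09 to 1.17. They are called the library set here, and results are given with and without them. Xist was at 7909 to 21724 counts in aged 1 to 4 and at 1 to 9 counts in the other 5 libraries, while the Y-linked Ddx3y was at 0 in aged 1 to 4 and at 888 to 1721 counts in the others. The female label therefore did not hold for young 1 to 4 and aged 5, and age cannot be told apart from the sex-chromosome transcripts except through aged 5.

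Guidance cues steer growing axons and also act on cells outside the nervous system. Secreted class 3 semaphorins bind neuropilins, which signal through plexins, while membrane-bound classes bind plexins directly. Slits are secreted ligands of Robo receptors. Ephrins are held in the membrane, by a lipid anchor in the A class and by a transmembrane stretch in the B class, and signal in both directions with the Eph receptor tyrosine kinases of the neighbouring cell. Repulsive guidance molecules bind neogenin and are coreceptors for bone morphogenetic proteins. In bone, Sema3a and Sema4d, the latter made by osteoclasts, are known regulators of the balance between formation and resorption, and ephrin-B2 with EphB4 carries signals between osteoclasts and osteoblasts.

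The 3 promoters below belong to the members that had an unadjusted p below 0.05 between the ages and a single start in the sequence table, and they show the DNA just upstream of genes that the results turn on. Each run is the 250 bases before the start, 5′ to 3′ on the gene's strand, from RefSeq on GRCm38.p6, and capitals mark matches to the motifs searched. Sema3d lies at chr5:12382916-12383165, Epha2 at chr4:141300971-141301220 and Plxnb3 at chrX:73756853-73757102, all on the plus strand.
Sema3d: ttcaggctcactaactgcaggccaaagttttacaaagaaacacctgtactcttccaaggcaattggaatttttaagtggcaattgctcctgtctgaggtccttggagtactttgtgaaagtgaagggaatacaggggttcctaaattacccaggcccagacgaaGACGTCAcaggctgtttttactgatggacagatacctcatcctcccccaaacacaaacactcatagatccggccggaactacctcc
Epha2: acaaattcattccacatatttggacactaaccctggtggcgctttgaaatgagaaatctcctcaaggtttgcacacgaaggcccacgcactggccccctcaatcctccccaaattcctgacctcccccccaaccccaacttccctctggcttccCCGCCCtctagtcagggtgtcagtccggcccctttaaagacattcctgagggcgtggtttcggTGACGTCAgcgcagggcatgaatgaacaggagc
Plxnb3: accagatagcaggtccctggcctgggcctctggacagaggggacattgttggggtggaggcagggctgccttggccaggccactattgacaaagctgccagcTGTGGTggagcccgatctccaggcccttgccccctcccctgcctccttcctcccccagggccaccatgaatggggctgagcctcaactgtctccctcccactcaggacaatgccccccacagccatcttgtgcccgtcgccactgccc
The motifs were the core of the cAMP response element (TGACGTC), a Runx motif (TGTGGT), a GC box (GGGCGG), an E-box (CACGTG) and a TATA box (TATAAA), each searched on both strands. Sema3d held the cAMP response element core on the minus strand, 86 bases before the start. In Epha2 the same core was matched on both strands at overlapping positions, 33 and 32 bases before the start, beside a GC box 96 bases before it. Plxnb3 held a Runx match 148 bases before the start and no GC box in these letters. Over the 72 windows of the 54 members with an entry, the GC box was found in 70.8%, against 32.7% of 32851 windows of all genes. The shares were 2.78% and 2.78% for the cAMP response element core, 11.1% and 14.0% for the Runx motif, 5.56% and 6.02% for the E-box, and 5.56% and 12.4% for the TATA box. A match describes letters only, and windows of 1 gene overlap in part.

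Per transcript length, the class 4 semaphorins and the plexins were the most abundant of these families. Sema4a, a membrane semaphorin of immune cells, had the highest level, 65.2 ± 28.5 TPM, a share of transcripts corrected for length (SD, n = 9 libraries). Plxnb2, a receptor for class 4 semaphorins, followed at 42.5 ± 18.9 TPM, then Sema4d at 29.9 ± 14.9 TPM and Plxnd1, a vascular plexin, at 29.5 ± 16.2 TPM. The SDs of neighbouring genes overlapped throughout this order, which continued with Sema4b at 12.7 ± 6.10 TPM, Plxnc1 at 11.7 ± 6.61 TPM, Nrp1 at 10.6 ± 5.68 TPM and Nrp2 at 9.93 ± 5.35 TPM. The order also differed between libraries: Plxnb2 was above Sema4a in young 4 and aged 3, both of the library set. Sema4d was above Plxnb2 in young 2, young 3 and aged 5. Sema3e was the lowest of the tested members at 0.0922 TPM. Summed by family, class 4 semaphorins reached 109.5 ± 44.5 TPM in young (n = 4) and 112.7 ± 54.0 TPM in aged libraries (n = 5). Plexins reached 79.1 ± 24.5 TPM in young and 106.9 ± 54.3 TPM in aged libraries. The ephrin-A ligands were lower and less variable, at 5.1 ± 0.6 TPM in young and 4.2 ± 0.3 TPM in aged libraries.

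**Figure D1:**
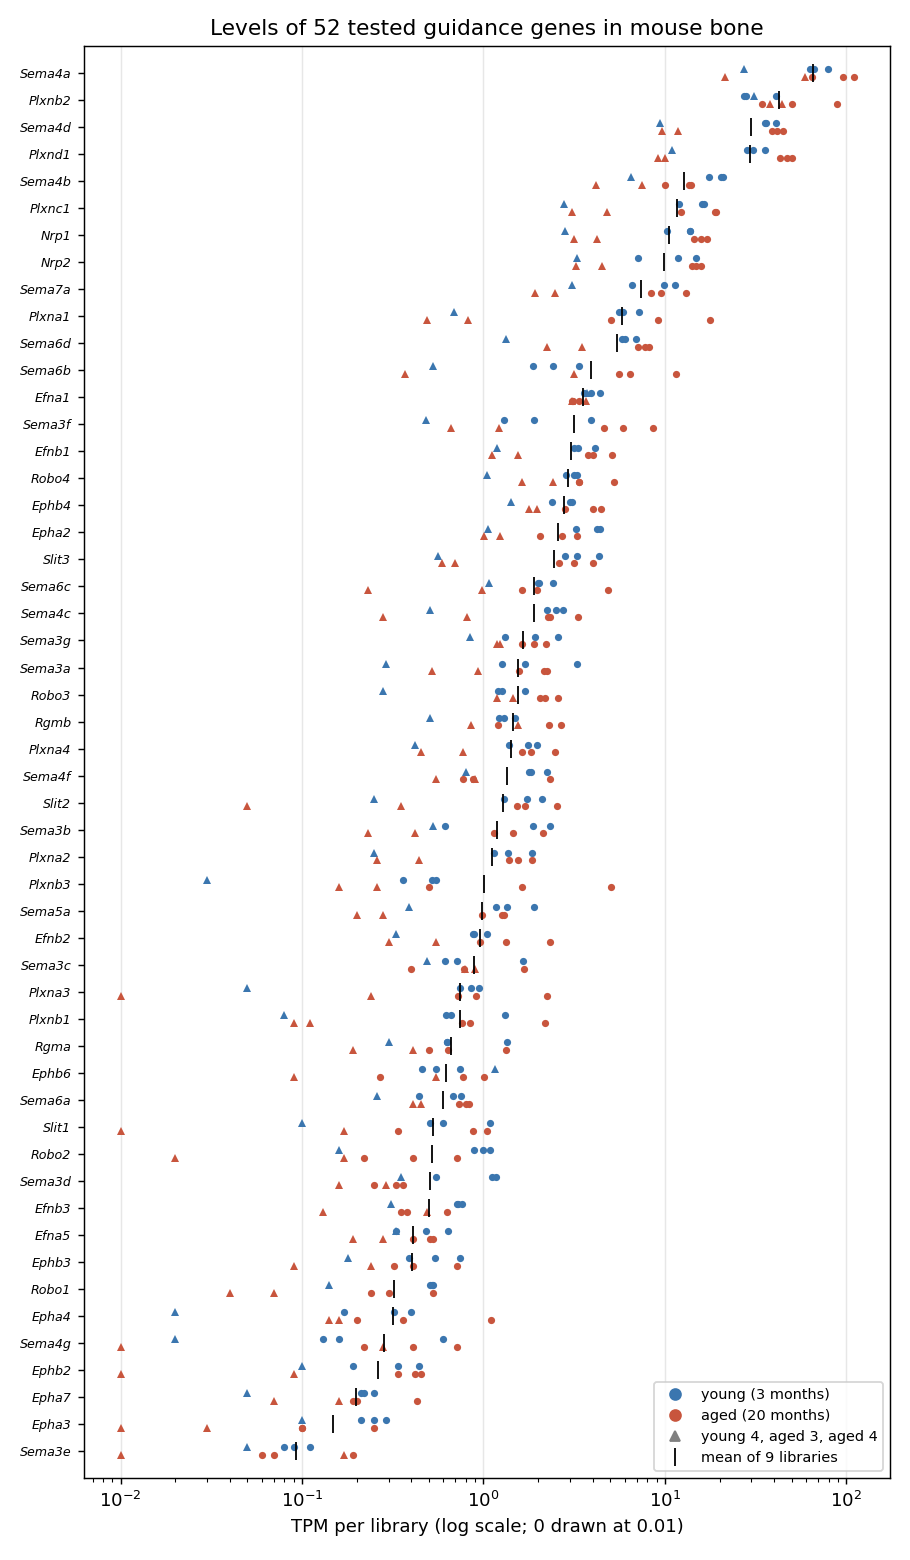
TPM of each tested member in each of the 9 libraries on a log axis, ordered by mean TPM, with the mean of all libraries as a tick, values of 0 drawn at 0.01 and the 3 libraries of the set as triangles. Sema4a, Plxnb2, Sema4d and Plxnd1 lie at the top, and the triangles of most plexins lie to the left of the circles.

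Between the ages, 0 of the 52 tested members passed an adjusted p of 0.05 in edgeR's quasi-likelihood test, where 0.0% of all genes tested passed. Over the members the median log2 ratio of aged to young was -0.06, with 22 above and 30 below 0, and 0.03 over all genes tested. At an unadjusted p below 0.05, 3 members were higher in aged marrow (Sema3f, Sema6b and Plxnb3) and 3 were lower (Sema3d, Sema4b and Epha2), where 4.15% and 4.64% of all genes tested passed. That is near the background in both directions. With limma-voom 0 members passed the adjusted threshold, while DESeq2 called 1 member, Sema3d, where it called 2.17% of the 16576 genes tested. In the authors' deposited table the same single member had an adjusted p below 0.05. There 0.527% of all 56980 genes did, a share not comparable with the former, since 26485 of the 56980 had no count in any library.

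With the library set as a term in the edgeR fit, 0 members passed either, where 0.615% of all genes tested passed as higher and 1.31% as lower, 1.92% in all. Leaving libraries out of that fit moved this count: without aged 3, 4 members passed (Sema3d, Sema3f, Sema4b and Sema6b), and without aged 5, 1 member passed (Plxnb3). Over all genes the count went from 319 to 1633 without aged 3, to 712 without aged 5 and to at most 2 without any 1 of the other libraries. Calls among the members thus rose only where those over all genes rose, and they are not read as a result about the members. Among the 6 libraries outside the set, 0 members passed, where 0.012% of genes did. The biological coefficient of variation was 0.464 with group alone and 0.287 with the set as a term, so libraries of 1 age differed less once the set was a term.

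**Figure D2:**
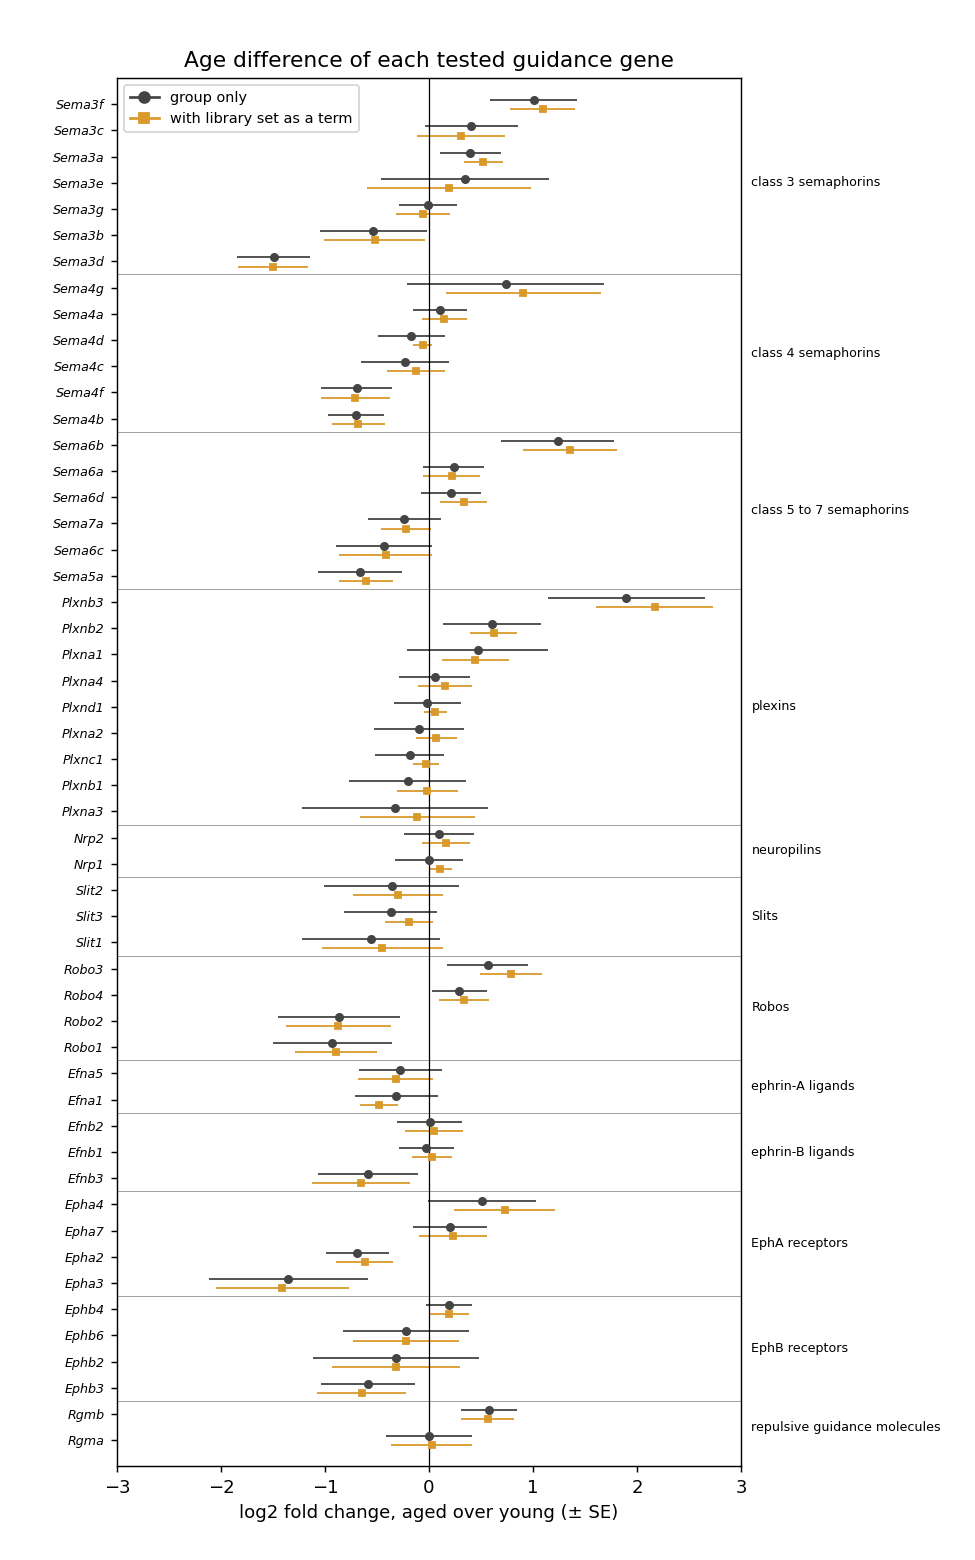
Log2 fold change, aged over young, of each tested member by family, with bars of 1 standard error. Grey circles come from the fit with age alone and orange squares from the fit with the library set as a term, and the squares mostly keep the side of 0 with shorter bars.

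By family, the medians of the log2 fold change were 0.35 for class 3 semaphorins, -0.20 for class 4, -0.01 for classes 5 to 7, -0.02 for plexins and 0.05 for neuropilins. They were -0.37 for Slits, -0.29 for Robos, -0.29 for ephrin-A ligands, -0.02 for ephrin-B ligands, -0.24 for EphA receptors, -0.27 for EphB receptors and 0.29 for repulsive guidance molecules. All 3 Slits and both tested ephrin-A ligands were below 0, and 0 of those genes passed the test. Several medians moved with the libraries used. For class 3 semaphorins it was 0.19 with the set as a term, 0.06 outside the set and -0.66 between young 1 to 3 and aged 5, and for class 4 it was -0.09, -0.01 and 0.04. For EphB receptors it turned to 0.14 outside the set and 0.17 between young 1 to 3 and aged 5, and for repulsive guidance molecules to -0.36 in the latter.

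Among the class 3 semaphorins, Sema3d, a secreted ligand that signals through neuropilins, had the smallest p of all members. In young 1 to 4 its level was 5.51, 5.26, 2.77 and 4.07 CPM, and in aged 1 to 5 it was 0.949, 1.87, 2.15, 1.19 and 1.66 CPM. Every aged library lay below every young one, which held for 1 of 52 members in this direction, where 2.76% of all genes tested did so, and for 0 members in the other, where 1.67% did. The mean was 4.41 ± 1.26 CPM in young (n = 4) and 1.56 ± 0.488 CPM in aged libraries (n = 5), a log2 fold change of -1.49 (SE 0.35, adjusted p = 0.266 by edgeR). The exact two-sided permutation test over libraries gave p = 0.00794, the smallest that the arrangements of 4 and 5 libraries can give. That value follows largely from the same separation, by which Sema3d was picked from the 52 members. It is not adjusted for that choice and is no separate support. The difference was as large with the library set as a term (-1.50, SE 0.34, adjusted p = 0.0575) and among the 6 libraries outside the set (-1.58, adjusted p = 0.0779). Within the set, where young 4 is the single young library against 2 aged ones, it was -1.22. Between young 1 to 3 and aged 5, which are alike in Xist and Ddx3y, it was -1.45. DESeq2 gave an adjusted p of 0.0043, and the authors' deposited table gives a log2 fold change of -1.50 with an adjusted p of 0.00611. The counts behind these values were low, at 60 to 145 per young library and 22 to 44 per aged library.

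Marker levels of several other cell types differed between the ages as well, though 0 of the markers named here by list were called with age alone. The 8 stromal and fibroblast markers summed to 1630 to 1928 CPM in young and 786 to 1275 CPM in aged libraries, with 7 of 8 below 0 on the log2 fold scale. All 8 osteoblast markers were below 0 too, summing to 2332 to 6199 CPM in young and 669 to 2638 CPM in aged libraries, where aged 2 and aged 5 overlapped young 3. The 8 erythroid markers were below 0 too, at 5873 to 6932 and 1131 to 4269 CPM, as were the 5 tested chondrocyte markers (median log2 fold change -0.86) and the 8 B cell markers (-0.83). All 8 plasma cell markers were above 0 (1.08). The sums of these last 3 lists overlapped between the ages. B cell markers summed to 385 to 448 CPM in young and 74.0 to 598 CPM in aged libraries, with aged 3 above every young library. Chondrocyte sums were 40.9 to 263 and 27.5 to 169 CPM, and plasma cell sums 385 to 711 and 485 to 1634 CPM. None of the stromal or osteoblast markers was at 0 in any library. The part of these cells in the level of Sema3d, or of the other members that lay lower in aged libraries, was not tested.

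Sema3f, another secreted neuropilin ligand, lay the other way. It was at 2.47, 5.13, 3.74 and 2.38 CPM in young 1 to 4 and at 6.00, 12.6, 3.37, 4.83 and 7.68 CPM in aged 1 to 5, so aged 3 and aged 4 overlapped the young range. The means were 3.43 ± 1.29 and 6.90 ± 3.57 CPM, with a log2 fold change of 1.01 (SE 0.42, adjusted p = 0.52, exact permutation p = 0.0714). With the library set as a term it was 1.09 (SE 0.31, adjusted p = 0.0959). Sema3a, chosen for its known role in bone after its values were seen, was at 6.39, 6.09, 6.38 and 3.26 CPM in young and 8.11, 7.25, 4.78, 6.75 and 9.60 CPM in aged libraries. Its groups overlapped through aged 3 alone, and its log2 fold change was 0.40 (SE 0.29, adjusted p = 0.876). Sema3c was above 0 at 0.41 and Sema3b below it at -0.53, while Sema3g was at -0.01, all with an adjusted p of 0.975 or more. The direction of Sema3c turned with terms for the library set and Y-linked transcripts (-0.89) and between young 1 to 3 and aged 5 (-0.90).

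The class 4 semaphorins are membrane ligands that plexins of the B and D types bind. Sema4a, the most abundant, was at 142, 126.2, 130.3 and 113 CPM in young and 168, 121, 70.9, 156 and 171 CPM in aged libraries. Young libraries lay inside the aged range, and the log2 fold change was 0.11 (SE 0.26). Sema4b was at 59.2, 64.7, 52.4 and 46.9 CPM in young and 23.1, 40.2, 48.2, 20.8 and 39.1 CPM in aged libraries. Only aged 3 and young 4 overlapped, both of the library set, and the 7 other libraries were apart by age. The means were 55.8 ± 7.77 and 34.3 ± 11.8 CPM, with a log2 fold change of -0.70 (SE 0.27, adjusted p = 0.466, exact permutation p = 0.0317). Sema4b was at -0.77 among the 6 libraries outside the set (adjusted p = 0.0975).

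Sema4f was at 7.07, 6.22, 6.13 and 6.25 CPM in young and 2.16, 2.53, 3.68, 4.78 and 6.63 CPM in aged libraries. The 4 aged libraries with Xist lay below all young ones, and aged 5, without Xist, lay among the young. Aged 1 to 4 below all young libraries, with aged 5 not below them all, was seen in 1 of 52 members and in 1.08% of all genes tested. The log2 fold change was -0.70 (SE 0.34, adjusted p = 0.638, exact permutation p = 0.0714), and with terms for the library set and for Y-linked transcripts it was 0.15. Sema4d was at 127, 122, 121 and 65.4 CPM in young and 115, 125, 57.9, 56.4 and 129 CPM in aged libraries. All libraries of the set lay at 56.4 to 65.4 CPM and the others at 115 to 129 CPM, with a log2 fold change between the ages of -0.17 (SE 0.32).

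In classes 5 to 7, Sema6b, a transmembrane ligand of A-type plexins, was at 6.39, 5.63, 9.36 and 3.67 CPM in young libraries. In aged 1 to 5 it was at 24.2, 15.4, 2.27, 15.2 and 16.9 CPM. All aged libraries but aged 3 lay above all young ones, and aged 3 was the lowest of the 9. The means were 6.26 ± 2.36 and 14.8 ± 7.91 CPM, with a log2 fold change of 1.24 (SE 0.54, adjusted p = 0.552, exact permutation p = 0.198). Without aged 3 it was 1.51 (adjusted p = 0.135), and among the 6 libraries outside the set 1.41 (adjusted p = 0.0694). Sema5a, a semaphorin with thrombospondin repeats, was at 15.9, 12.8, 9.95 and 8.28 CPM in young and 6.95, 11.5, 5.09, 2.75 and 10.7 CPM in aged libraries. The groups overlapped widely, with a log2 fold change of -0.66 (SE 0.40, adjusted p = 0.778). Sema7a, a lipid-anchored semaphorin that binds Plxnc1, was at 17.6 to 28.2 CPM in young and 10.3 to 31.1 CPM in aged libraries, with a log2 fold change of -0.24. It turned to 0.08 outside the set, 0.32 with terms for the set and Y-linked transcripts and 0.41 between young 1 to 3 and aged 5.

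**Figure D3:**
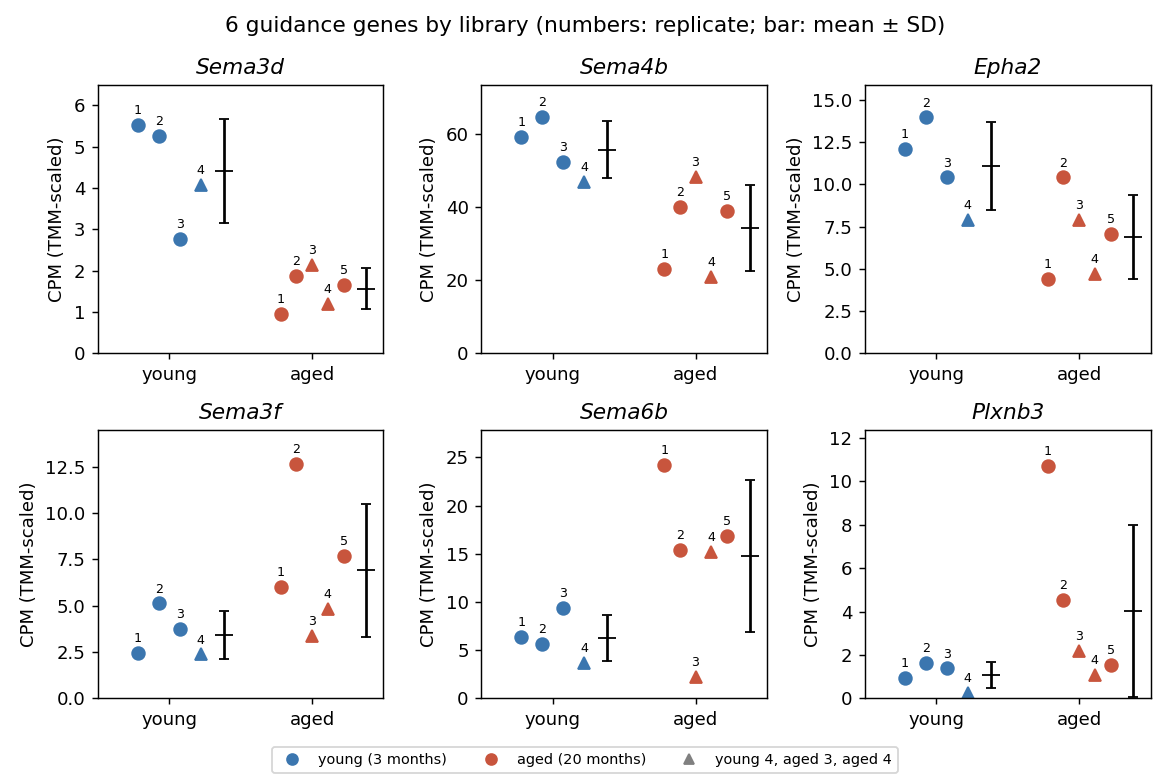
CPM of the 6 members with an unadjusted p below 0.05, Sema3d, Sema4b, Epha2, Sema3f, Sema6b and Plxnb3, in each young and aged library, with the mean and bars of 1 SD and the library set as triangles. In the Sema3d panel the 5 aged points lie at 0.949 to 2.15 CPM, below the young points at 2.77 to 5.51 CPM, and in the other panels the ages overlap.

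Among the plexins, the receptors of the semaphorins, Plxnb3 had the smallest p. It was at 0.951, 1.65, 1.39 and 0.272 CPM in young and 10.7, 4.54, 2.21, 1.09 and 1.54 CPM in aged libraries. Aged 1, aged 2 and aged 3 lay above the young range, and only aged 1 and aged 2 lay above the aged mean. The means were 1.06 ± 0.601 and 4.02 ± 3.96 CPM, with a log2 fold change of 1.90 (SE 0.75, adjusted p = 0.487, exact permutation p = 0.0873). Leaving out aged 1 brought it to 1.13. Plxnb3 is 1 of 3 members on the X chromosome, with Plxna3 and Efnb1. Between young 1 to 3 and aged 5, which both have Y-linked transcripts, its difference was 0.21, and with terms for the library set and Y-linked transcripts it was 0.23.

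Plxnb2, the most abundant plexin, was at 90.0, 82.4, 79.6 and 46.1 CPM in young and 209, 161, 48.9, 41.3 and 108 CPM in aged libraries. Outside the library set all 3 aged libraries lay above the 3 young ones, while the libraries of the set lay at 41.3 to 48.9 CPM at both ages. The log2 fold change was 0.61 with age alone (SE 0.47, adjusted p = 0.91) and 0.93 outside the set (adjusted p = 0.0791). It was 0.18 with terms for the set and Y-linked transcripts, 0.36 between young 1 to 3 and aged 5, 0.37 with limma-voom and 0.03 within the set. Plxna1, a coreceptor of neuropilins named here after its values were seen, was at 33.7, 36.4, 34.8 and 12.2 CPM in young and 87.1, 60.1, 12.7, 5.97 and 36.5 CPM in aged libraries. Aged 1 and aged 2 were the highest and the set the lowest, with a log2 fold change of 0.47 (SE 0.68). The direction was not stable, at -0.16 with terms for the set and Y-linked transcripts, -0.32 within the set and 0.01 with limma-voom. The remaining 6 tested plexins lay between -0.33 for Plxna3 and 0.05 for Plxna4.

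Nrp1, the binding receptor for class 3 semaphorins and for vascular endothelial growth factor, was at 37.3, 31.2, 40.5 and 19.2 CPM in young and 37.7, 41.6, 18.3, 19.5 and 42.9 CPM in aged libraries. Its log2 fold change was -0.00 (SE 0.33), with the 3 libraries of the set at 18.3 to 19.5 CPM and the others at 31.2 to 42.9 CPM. Nrp2 was at 39.2 to 75.5 CPM in young and 27.7 to 81.5 CPM in aged libraries, with a log2 fold change of 0.09. The sign of both changed with the scaling or the libraries used. In both genes the ages overlapped across most of their range.

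Of the Slits, Slit3, the most abundant, was at 17.8, 14.8, 12.3 and 5.70 CPM in young and 8.63, 17.3, 6.13, 4.05 and 12.9 CPM in aged libraries. Slit1 was at 2.62, 1.83, 2.06 and 1.15 CPM in young and 1.60, 1.82, 1.53, 0.0519 and 1.51 CPM in aged libraries, with aged 4 far below the rest. Both sets of values overlapped between the ages, and the log2 fold changes were -0.37 for Slit3 and -0.56 for Slit1. Among the receptors, Robo1 was at 2.93, 3.07, 2.98 and 1.63 CPM in young and 1.08, 3.11, 0.736, 0.312 and 1.69 CPM in aged libraries. Aged 2 alone of the aged libraries reached the level of young 1 to 3, and the log2 fold change was -0.93 (SE 0.57, adjusted p = 0.794). Robo2 was at 1.51 to 2.24 CPM in young and 0.306 to 2.13 CPM in aged libraries, at -0.86 (adjusted p = 0.852). Robo4, the Robo of endothelial cells, was the most abundant receptor, at 7.06 to 10.4 CPM in young and 7.53 to 16.1 CPM in aged libraries, with a log2 fold change of 0.29. The 8 endothelial markers summed to 292 to 408 CPM in young and 260 to 484 CPM in aged libraries, ranges that overlap as those of Robo4 do.

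Efna1, a lipid-anchored ephrin, was at 4.33, 3.98, 4.24 and 9.37 CPM in young and 2.55, 3.25, 6.62, 6.23 and 3.39 CPM in aged libraries. On this scale all libraries of the set lay above the other 6, and aged libraries lay below young ones both inside the set and outside it. On TPM the set did not stand apart, at 3.08 to 3.74 TPM against 3.07 to 4.36 TPM in the other 6. The log2 fold change was -0.31 with age alone (adjusted p = 1) and -0.48 once the set was a term (SE 0.18, adjusted p = 0.185). Efna5 was at -0.28. Efnb1, the most abundant B-class ephrin, was at 7.27 to 10.2 CPM in young and 4.62 to 10.5 CPM in aged libraries, at -0.02. Efnb3 was at 1.71, 1.92, 1.97 and 1.83 CPM in young and 0.690, 1.60, 2.51, 0.519 and 0.904 CPM in aged libraries. Aged 3 alone of the aged libraries was above the narrow young range, and the log2 fold change was -0.58 (adjusted p = 0.931). Efnb2, the ligand of the osteoclast side, was named after its values were seen, and it was at 3.02 to 4.30 CPM in young and 2.39 to 5.20 CPM in aged libraries, with a log2 fold change of 0.01 (SE 0.31).

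Epha2, a receptor for A-class ephrins, was the Eph receptor with the smallest p. It was at 12.1, 14.0, 10.4 and 7.88 CPM in young and 4.40, 10.4, 7.91, 4.67 and 7.04 CPM in aged libraries. Aged 1, aged 4 and aged 5 lay below every young library, and aged 2 and aged 3 overlapped the young range. The means were 11.1 ± 2.58 and 6.89 ± 2.48 CPM, with a log2 fold change of -0.69 (SE 0.30, adjusted p = 0.55, exact permutation p = 0.0556). Epha3 was at 0.913, 1.42, 1.18 and 1.02 CPM in young and 0.345, 1.16, 0, 0.208 and 0.452 CPM in aged libraries, so aged 2 alone overlapped the young range. Its log2 fold change was -1.35 (SE 0.76, adjusted p = 0.736, exact permutation p = 0.0397), from levels near 1 CPM or less. Ephb4, the partner of ephrin-B2, had the highest mean TPM of the Eph receptors over all 9 libraries, though Epha2 was above it in young 1 to 3. Ephb4 was at 8.02 to 11.0 CPM in young and 9.14 to 14.9 CPM in aged libraries, with a log2 fold change of 0.19. Ephb3 was at 0.966 to 1.33 CPM in young and 0.415 to 1.35 CPM in aged libraries, with a log2 fold change of -0.59.

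Rgmb, the more abundant of the repulsive guidance molecules, was at 5.21, 7.46, 6.13 and 5.64 CPM in young and 9.75, 10.9, 8.09, 11.6 and 5.27 CPM in aged libraries. The 4 aged libraries with Xist lay above all young ones, and aged 5 lay among the young. Aged 1 to 4 above all young libraries, with aged 5 not above them all, was seen in 1 of 52 members and in 1.12% of all genes tested. The means were 6.11 ± 0.977 and 9.12 ± 2.52 CPM, with a log2 fold change of 0.58 (SE 0.27, adjusted p = 0.595, exact permutation p = 0.0714). Between young 1 to 3 and aged 5 the difference was -0.26, and with terms for the library set and Y-linked transcripts it was -0.24. Rgma was at 1.60, 2.01, 1.68 and 1.90 CPM in young and 1.34, 3.56, 1.04, 1.77 and 1.28 CPM in aged libraries, with a log2 fold change of 0.00. Its value in aged 2 was the only aged value above the young range.

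The 10 members below the filter were Sema5b, Efna2, Efna3, Efna4, Epha1, Epha5, Epha6, Epha8, Epha10 and Ephb1, all at 34 counts or fewer in every library. Epha6 was at 0 in all 9 libraries and Epha10 had 1 count, in young 4. Epha1 had 7, 7, 8 and 3 counts in young and 12, 27, 3, 3 and 28 counts in aged libraries, and Ephb1 had 10, 16, 9 and 6 counts in young and 4, 9, 0, 4 and 13 counts in aged libraries. Counts ranged from 4 to 34 for Efna2, from 2 to 11 for Efna4, from 0 to 6 for Efna3, and from 0 to 5 for Sema5b, Epha5 and Epha8. Epha1 passed the filter among the 6 libraries outside the set, where the 3 aged libraries lay above the 3 young ones. It passed there only through the aged libraries, since its young counts were below the minimum count of 10. Its log2 fold change of 1.59 (SE 0.43) in those libraries is therefore a description and no test. Differences of these 10 genes between the ages were not tested in the main fit. The authors' deposited DESeq2 table gives Epha1 a log2 fold change of 1.16 over all 9 libraries (adjusted p = 0.718). It marks none of the 10 genes as significant.

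Of 67 genes that act with these families as coreceptors or signal downstream of them, 62 were tested, 38 of them above and 24 below 0, with a median log2 fold change of 0.04. None passed the adjusted threshold with age alone. With the library set as a term, 1 was called higher, where 0.615% of all genes tested were: Rnd3, a small GTP-binding protein that binds plexins. It was at 15.8 ± 2.32 CPM in young (n = 4) and 23.1 ± 4.83 CPM in aged libraries (n = 5), with a log2 fold change of 0.61 in that fit (SE 0.11, adjusted p = 0.0405 by edgeR). Leaving out any 1 of young 1 to 3, aged 1 or aged 4 in that fit left 0 genes called, Rnd3 included. Of the others with the smallest p, Nrcam, a cell adhesion partner of neuropilins, was at 1.48 ± 0.503 and 2.77 ± 0.577 CPM. Met, a receptor kinase that associates with B-type plexins, was at 13.9 ± 1.19 and 19.4 ± 3.21 CPM. Mical3, of the family of redox enzymes that act downstream of plexins, was at 61.7 ± 16.9 and 34.6 ± 13.5 CPM. The adjusted p of these 4 genes with age alone was 0.466 to 0.468. By group, 8 of 12 tested semaphorin coreceptors, 12 of 18 plexin signalling genes, 8 of 14 Slit and Robo genes, 8 of 12 Eph genes and 2 of 6 binding partners of the repulsive guidance molecules were above 0.

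Levels of many members also differed between the library set and the other libraries. In the set, 14 of the 52 tested members lay below all 6 other libraries, where 20.9% of all genes tested did, and 1 lay above, where 20.0% did. Of the 9 plexins, 7 (Plxna1, Plxna2, Plxna3, Plxnb1, Plxnb2, Plxnc1 and Plxnd1) were among the 14, with Slit2, Slit3, Sema4c, Sema4d, Nrp1, Efnb1 and Ephb2, and Efna1 was the member above. These positions are on TMM-scaled CPM and depend on the measure for some genes. On TPM the set overlapped the other libraries for Efna1 and for Plxnb2 (30.98 to 44.16 TPM against 27.2 to 88.76 TPM). The median log2 difference, set minus other libraries, was -0.75 over the members and -0.03 over all genes tested, and by family it ran from -1.43 for plexins and -1.36 for Slits to 0.03 for class 3 semaphorins and 0.74 for ephrin-A ligands. The largest differences below 0 were those of Plxna3 at -2.72, Sema4g at -2.32 and Plxna1 at -2.22. Summed over all 62 members, TPM was 120.6 to 169.2 in the set and 288.0 to 463.5 in the other 6 libraries.

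The members were also longer than most genes, with a median deposited length of 4666.5 bases against 2683 bases over all genes tested. Of the 29 tested members under 5000 bases, 5 lay below the other libraries in the set, where 16.5% of genes of that length did. Of the 23 members of 5000 bases or more, 9 did, where 44.8% of genes of that length did. The median log2 difference was -0.37 for members and 0.11 for all genes under 5000 bases. At 5000 bases or more it was -1.03 for members and -0.64 for all genes. Both classes are wide, so members and genes were not matched for length within them. Across the 52 members, the Spearman rank correlation between length and the difference was -0.38, and across the 16576 genes it was -0.47, where the points share the same 9 libraries and genes are not independent. The part of transcript length in the library set was not tested beyond these values.

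**Figure D4:**
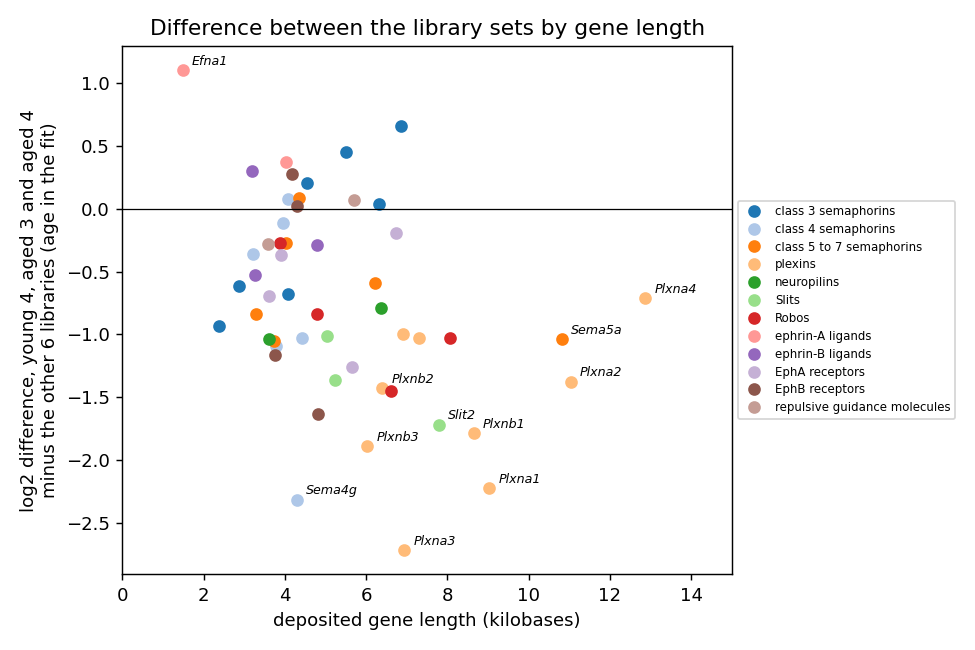
Log2 difference between the library set and the other 6 libraries against the deposited gene length in kilobases, 1 point per tested member, coloured by family. Longer members tend to lie lower, with Plxna3 at -2.72 and Plxna1 at -2.22 near the bottom and Efna1 at 1.10 at the top left.

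Outside the set, 3 young and 3 aged libraries remained, and here the ages did not overlap for 7 members above (Sema3a, Sema3f, Sema6b, Plxna1, Plxnb2, Plxnd1 and Robo3), where 13.7% of all genes tested did so. For 7 members the aged libraries lay below (Sema3d, Sema4b, Slit1, Efna1, Efnb3, Epha2 and Ephb3), where 16.6% of all genes did. Both counts are near the background.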

How the data were processed

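RNA of 4 young and 5 aged libraries was read from 1 deposited table. The submitters' processing notes name Bowtie 0.12.2 and mm8 without their roles, and the quantifier and annotation are not given in the sources used here. The deposited expected counts, not scaled by the authors, were rounded and tested with edgeR 4.0.16 (quasi-likelihood, TMM, filterByExpr with minimum count 10 and total 15, group only, two-sided, Benjamini-Hochberg adjustment over 16576 genes). CPM are TMM-scaled. The authors' deposited TPM served the order of levels between genes and family sums per library, described without a test. Deposited log2 fold changes and p-values are the authors' own, computed with DESeq2 by the table's name.

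Alternatives were DESeq2 1.42.0, limma-voom (limma 3.58.1), other scaling and filters, left-out libraries, a replicate block, and terms for the library set and Y-linked transcripts. The fits with the set term and 1 library left out were chosen after seeing the data. Scripts were tested on simulated data.

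Members and lists were chosen with earlier results of these data known. Named members were those called or with groups that did not overlap, and per family the most abundant and the 2 with the smallest p, and from the partner lists any called and the 4 with the smallest p. Others were named after their values were seen. Promoters came from RefSeq tables by symbol, where 54 of 62 members matched. X linkage came from GENCODE by gene ID.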

Additional observations from a re-analysis of the deposited data

Results flagged for a closer look

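In 5 of 54 checks of a named member within 1 age, a single library stood apart by Dixon's criterion, where chance flags about 1 in 20 groups. Efna1 in young 4 was at 9.37 CPM against 3.98 to 4.33 CPM in the other young libraries, but on TPM it lay among them (3.74 against 3.59 to 4.36 TPM). Robo1 in young 4 was at 1.63 CPM against 2.93 to 3.07 CPM. Sema4f in young 1 was at 7.07 CPM against 6.13 to 6.25 CPM. Among the aged libraries, Rgma in aged 2 was at 3.56 CPM against 1.04 to 1.77 CPM, and Slit1 in aged 4 was at 0.0519 CPM against 1.51 to 1.82 CPM. Young 4 and aged 4 belong to the library set, whose part in these values was not tested.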

How the results depend on the processing

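Of the 27 named members, 16 kept their sign in every planned fit and 11 changed it in at least 1, and the cause was not tested. Sema3d stayed below 0 in all planned fits, at -1.66 to -1.36, with an adjusted p of 0.0043 (DESeq2) to 1.00.

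Members called went from 0 to 1 with DESeq2, and with the set term and 1 library left out to 0 to 4: without aged 3, Sema3d (adjusted p = 0.0211), Sema3f (0.0471), Sema4b (0.0257) and Sema6b (0.0179), and without aged 5, Plxnb3 (0.0232). All genes called went from 0 to 360 with DESeq2, 13 with the replicate block, 319 with the set term, 2 outside the set and 5 with the set and Y-linked terms. Leaving out 1 library gave 0 to 6, and with the set term 0 to 1633 (1633 without aged 3, 712 without aged 5). The members called in those fits rose along with all genes and are not read as a result about the members. Members whose ages did not overlap went from 1 to 14 outside the set, where 13.7% of all genes tested lay above and 16.6% below. With 1 library left out the count was 1 to 6: 6 without aged 3, 4 without young 4, 3 without aged 2 or aged 5, and 2 without young 1. The share over all genes was not computed for these left-out counts, so they have no background beside them. Leaving out a library can only keep or add genes without overlap, so the rise is not read as a result about the members.

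With the set and Y-linked terms, the median of class 3 semaphorins was -0.61 and that of repulsive guidance molecules -0.41. The same fit put Efna5 at 0.20, Ephb4 at -0.071, Nrp1 at 0.22, Rgma at -0.59, Rgmb at -0.24, Sema4f at 0.15 and Sema7a at 0.32. Nrp1 was at 0.0085 with RLE factors and with DESeq2, 0.042 with totals, 6.3e-05 with a mean of at least 1 CPM, 0.11 with the set term and 0.17 outside the set. Efnb1 was at 0.023 with totals, 0.029 with the set term and 0.13 outside it, where Sema7a was at 0.080. Rgma was at -0.11 with limma-voom. With the replicate block Nrp2 was at -0.086, Rgma at -0.046 and Sema4a at -0.050. Leaving out 1 library gave -0.50 to 0.070 for Efna1 (above 0 without young 4), -0.11 to 0.13 for Efnb1, -0.18 to 0.15 for Nrp1, -0.043 to 0.28 for Nrp2 and -0.41 to 0.14 for Rgma.

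Replicate numbers were not taken as pairs in the main fit. Same-numbered libraries correlated at 0.456, 0.554, -0.387 and 0.739, and differently numbered ones at -0.640 to 0.527. Values were above 0 where both libraries or neither belonged to the library set, and below 0 otherwise. They therefore cannot settle whether the numbers pair the samples. With the replicate block 0 members were called. Low counts limit what can be seen of Sema3e, Epha3, Sema4g and the 10 untested members.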
